A study of Mustela putorius furo with 2 samples.

Results

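VIM, NES, PAX6, FABP7, HES1 and ASPM are 6 genes known for their expression in radial glia, and they were followed here through nuclei of the ferret cortex. They were chosen by symbol. Each symbol stood on 1 row of the feature tables, so the 6 genes are 6 of the 28156 features in either matrix. Their identifiers are ENSMPUG00000011602 for VIM, ENSMPUG00000004103 for NES, ENSMPUG00000011295 for PAX6, ENSMPUG00000014466 for FABP7, ENSMPUG00000003643 for HES1 and ENSMPUG00000010120 for ASPM.

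Radial glia are the stem cells of the developing cortex. Their long fibres reach from the ventricle to the brain surface and guide migrating neurons, and in carnivores and primates an outer population adds many of the neurons of the folded cortex. After neurogenesis most of them become astrocytes or are lost, and several of their genes go on being used by glia, by vessel cells or by subsets of neurons.

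Single nuclei from the somatosensory cortex of ferrets labelled DCX knockout were profiled by RNA-seq, while the series text speaks of a knockdown. The product of DCX, doublecortin, binds microtubules in neurons as they migrate, and both libraries carry this genotype. The region labels give an upper and a deeper band, 1 library each, while their titles call them replicate 1 and replicate 2 of a mutant. They were compared here as bands, and band and library cannot be told apart. The labels give no age, sex or number of animals, so the maturity of the cortex is not stated. Wild-type cortex was not analysed here. Without replicate libraries, no difference below has a replicate check or a test.

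The upper-band matrix held 7151 barcodes and the deeper-band matrix 9694. Filters kept 6261 and 8150 nuclei, holding 52352189 and 53363232 UMIs (unique molecular identifiers, each standing for 1 captured RNA molecule) and medians of 7992 and 4888 UMIs per nucleus. There were 24 barcodes that occurred in both matrices. Among kept nuclei, 36 had a barcode that was kept in both libraries, and 3 of these held a UMI of the 6 genes. Levels are given as CPM, the gene's UMIs per 1000000 UMIs of the nuclei named, with exact Poisson intervals. Shares carry exact Clopper-Pearson intervals. All intervals are at the 95% level and cover counting error only.

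Nuclei fell into 27 clusters, formed without the 6 genes, and 24 took a name from marker lists. Named nuclei were excitatory neuron-like (3031 in the upper and 3430 in the deeper band), inhibitory neuron-like (1022 and 770), astrocyte-like (388 and 806), oligodendrocyte-like (926 and 2524), oligodendrocyte precursor-like (125 and 193), microglia-like (47 and 66) and endothelial-like (258 and 151). Both astrocyte-like clusters raised 6 of the other radial glia genes, beside 7 and 8 astrocyte markers. Marker lists of radial glia, intermediate progenitors, proliferating cells and ependymal cells gave no cluster its name. The 3 unnamed clusters are called by number. Cluster 10 was led by RFX4 and NWD1 and raised markers of oligodendrocytes and astrocytes. Cluster 13 was led by HHLA2 and HTR2C and raised 6 excitatory neuron markers. Cluster 17 was led by the immune genes IL7R and ARHGAP15, with 10 oligodendrocyte markers raised.

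All 6 genes were sparse in both bands. Between 13.0% and 51.8% of the 23967 detected features had fewer UMIs than a given one of them, from HES1 at the low end to ASPM at the high end. A UMI of at least 1 of the 6 was present in 581 upper-band nuclei, or 9.28% (8.57 to 10.0%), and in 513 deeper-band nuclei, or 6.29% (5.78 to 6.84%). The 5 genes with at least 20 UMIs included 1 that was at least 2-fold lower in the deeper band, VIM, and 0 at least 2-fold higher. Among the 18813 genes with that many UMIs, 2.68% were at least 2-fold lower and 1.42% at least 2-fold higher, around a median log2 ratio of -0.01. In a level over all nuclei, fewer cells of a type and less RNA per cell cannot be told apart.

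**Figure D1:**
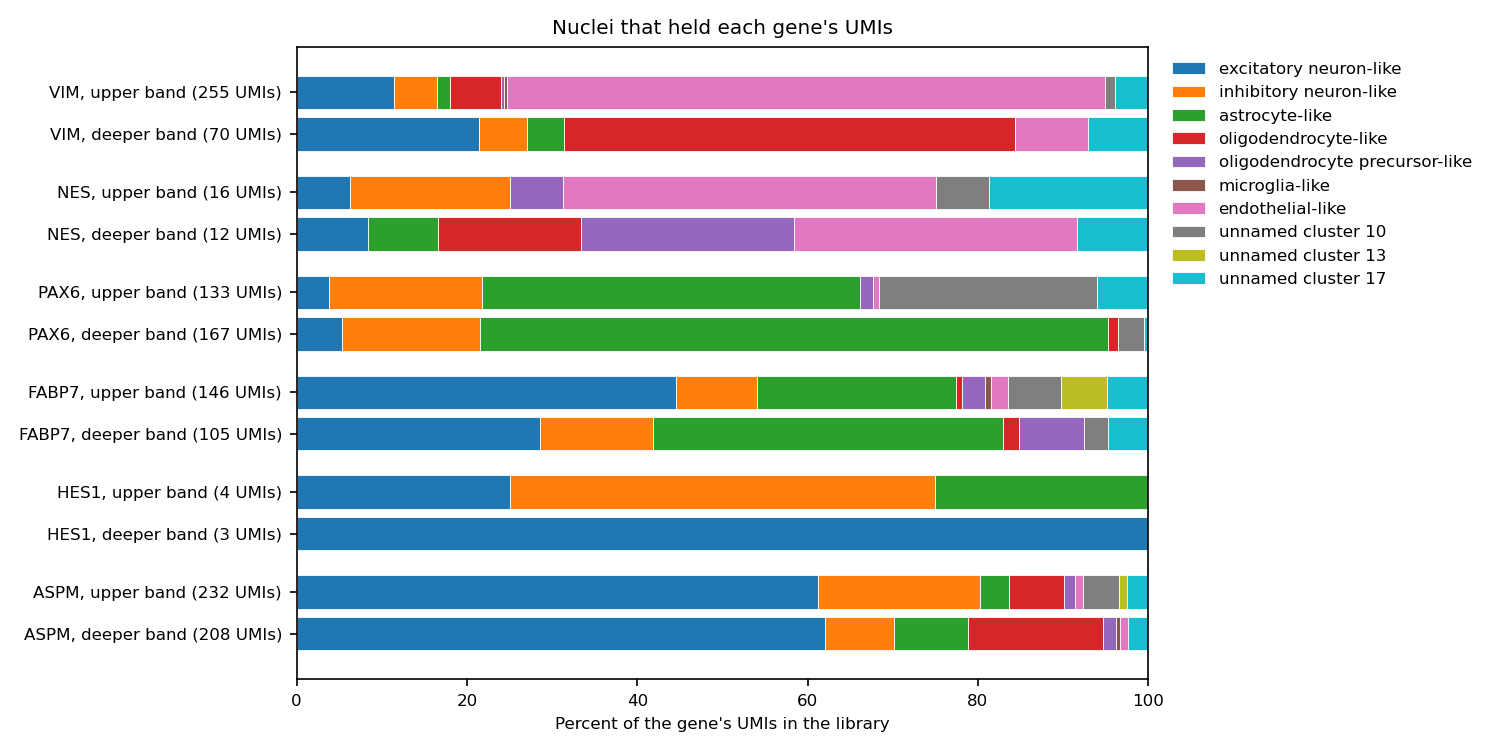
Share of each gene's UMIs (horizontal axis, percent) that fell in each class of nuclei (colours) in the upper-band and deeper-band libraries, with the gene's UMI total in brackets. Endothelial-like nuclei held 70.2% of upper-band and 8.57% of deeper-band VIM UMIs. Astrocyte-like nuclei held 44.4% and 73.7% of PAX6 UMIs, and cluster 10, which shared leading genes with them, 25.6% and 2.99%. The bars of HES1 rest on 4 and 3 UMIs.

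VIM encodes vimentin, the intermediate filament of radial fibres, which is also made by astrocytes under stress, by endothelial and smooth muscle cells and by fibroblasts. Most of its UMIs lay in the endothelial-like cluster. VIM had 255 UMIs in the upper band, or 4.87 CPM (4.29 to 5.51), and 70 in the deeper band, or 1.31 CPM (1.02 to 1.66). The upper band was thus higher, with a log2 ratio of deeper over upper of -1.89 (-2.30 to -1.51). Endothelial-like nuclei held 185 of the 325 VIM UMIs, or 56.9%. Of these, 179 were in the upper band, at 376 CPM (323 to 435), and 6 in the deeper band, at 27.4 CPM (10.0 to 59.6).

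Within the endothelial-like cluster the log2 ratio was -3.78 (-5.24 to -2.63). Without that cluster, a setting chosen after the values were seen, VIM had 76 and 64 UMIs and a log2 ratio of -0.28 (-0.79 to 0.22), whose interval spans 0. In endothelial-like nuclei, 12.9% of 6608 genes were at least 2-fold lower in the deeper band and 6.86% at least 2-fold higher, the widest spread of the classes compared. VIM was the 1 of the 6 genes with enough UMIs there, and it was among the lower ones.

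Few nuclei held many VIM UMIs. In the upper band, 64 of 258 endothelial-like nuclei had a VIM UMI (24.8%, 19.7 to 30.5%), and 10 of them had at least 5. One nucleus alone held 38. Without it the endothelial-like level of the upper band was 309 CPM and the log2 ratio -3.49 (-4.97 to -2.34). In the deeper band 6 of 151 endothelial-like nuclei had a VIM UMI (3.97%, 1.47 to 8.45%), each with 1. Median depths were close, at 1131 and 1118 UMIs.

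The endothelial-like cluster split into 9 subclusters, some of them led by genes of other cell types. Most VIM lay in a pair of them that were nearly all upper-band. A subcluster led by BMP5 and MSX1, in which the fibroblast genes DCN, COL1A2, COL3A1 and CEMIP were raised, had 82 VIM UMIs in 40 upper-band nuclei, or 749 CPM, and it held 0 deeper-band nuclei. The nucleus with 38 VIM UMIs was among these 40, as were nuclei with 10 and 6, so few nuclei carried much of this level. A subcluster led by MYH11 and MYOM1 had 54 VIM UMIs in 78 upper-band nuclei, or 717 CPM, and 0 in its 9 deeper-band nuclei. Neither subcluster met the rule for a name, and both held markers of several types: ACTA2, a smooth muscle actin gene, stood at 484 CPM in the first and 812 CPM in the second, and the endothelial gene FLT1 at 265 and 728 CPM. Next came a subcluster led by the oligodendrocyte genes C10orf90 and MOBP, with 21 VIM UMIs in 15 upper-band nuclei and 0 in 4 deeper-band nuclei. The same fibroblast genes stood higher in a subcluster led by FBLN2 and NGFR, with DCN at 801 CPM against 539 CPM in the BMP5/MSX1 subcluster. The FBLN2/NGFR subcluster had fewer VIM UMIs than the pair above.

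Together this pair, picked for its VIM UMIs, made up 45.7% of upper-band but 5.96% of deeper-band endothelial-like nuclei, and it held 76.0% of the upper-band VIM UMIs of the cluster. It stood at 736 CPM in the upper band, the nucleus with 38 VIM UMIs included. In the deeper band it had 0 UMIs, which puts the 95% upper limit of the log2 ratio at -0.73. The other subclusters held 140 and 142 nuclei. They had 43 VIM UMIs in the upper band, or 147 CPM, and 6 in the deeper band, or 28.5 CPM. Their log2 ratio was -2.37 (-3.90 to -1.13), below 0 as well. These other subclusters were unlike each other. They included the C10orf90/MOBP subcluster and one led by CACNG3 and ZNF831. In the latter FLT1 was present in 3.85% of nuclei, and DCN, ACTA2 and RGS5 had 0 UMIs. The part of this mix in the ratio was not tested. In the subcluster named endothelial-like, led by KITLG and BTNL9, VIM had 8 UMIs in 30 upper-band nuclei, or 183 CPM (79.0 to 361), and 2 in 25 deeper-band nuclei, or 72.4 CPM (8.77 to 262), so there the intervals overlapped.

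Marker lists of other types moved with VIM in this cluster. The 8 fibroblast markers summed to 667 CPM in upper-band nuclei and 246 CPM in deeper-band nuclei, where COL1A1 and SLC6A13 were at 0. The 8 mural markers summed to 736 and 469.9 CPM, with TAGLN at 0 in the deeper band. Oligodendrocyte markers summed to 1815 and 607 CPM, with 10 of 10 detected in the upper band and 8 of 10 in the deeper band, where MAG and CNP were at 0. Astrocyte markers summed to 1108 and 406 CPM, with 10 of 11 detected in the upper band (ALDH1L1 at 0) and 6 of 11 in the deeper band, where AQP4, GFAP, ALDH1L1, FGFR3 and SLC14A1 were at 0. The 11 endothelial markers, all detected in both bands, went the other way, at 3468 and 4188 CPM. The part of these levels in the VIM difference was not tested. Each nucleus was also classed by its own markers, with endothelial, mural and fibroblast nuclei apart, which left 3839 and 4499 nuclei unassigned. Endothelial nuclei then held 8.31% of VIM UMIs at a log2 ratio of -1.60 (-3.97 to 0.12). The fibroblast class had 60 VIM UMIs in 43 upper-band nuclei and 2 in 16 deeper-band nuclei. The mural class had 17 in 36 and 2 in 37, and unassigned nuclei had 119 and 36.

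**Figure D2:**
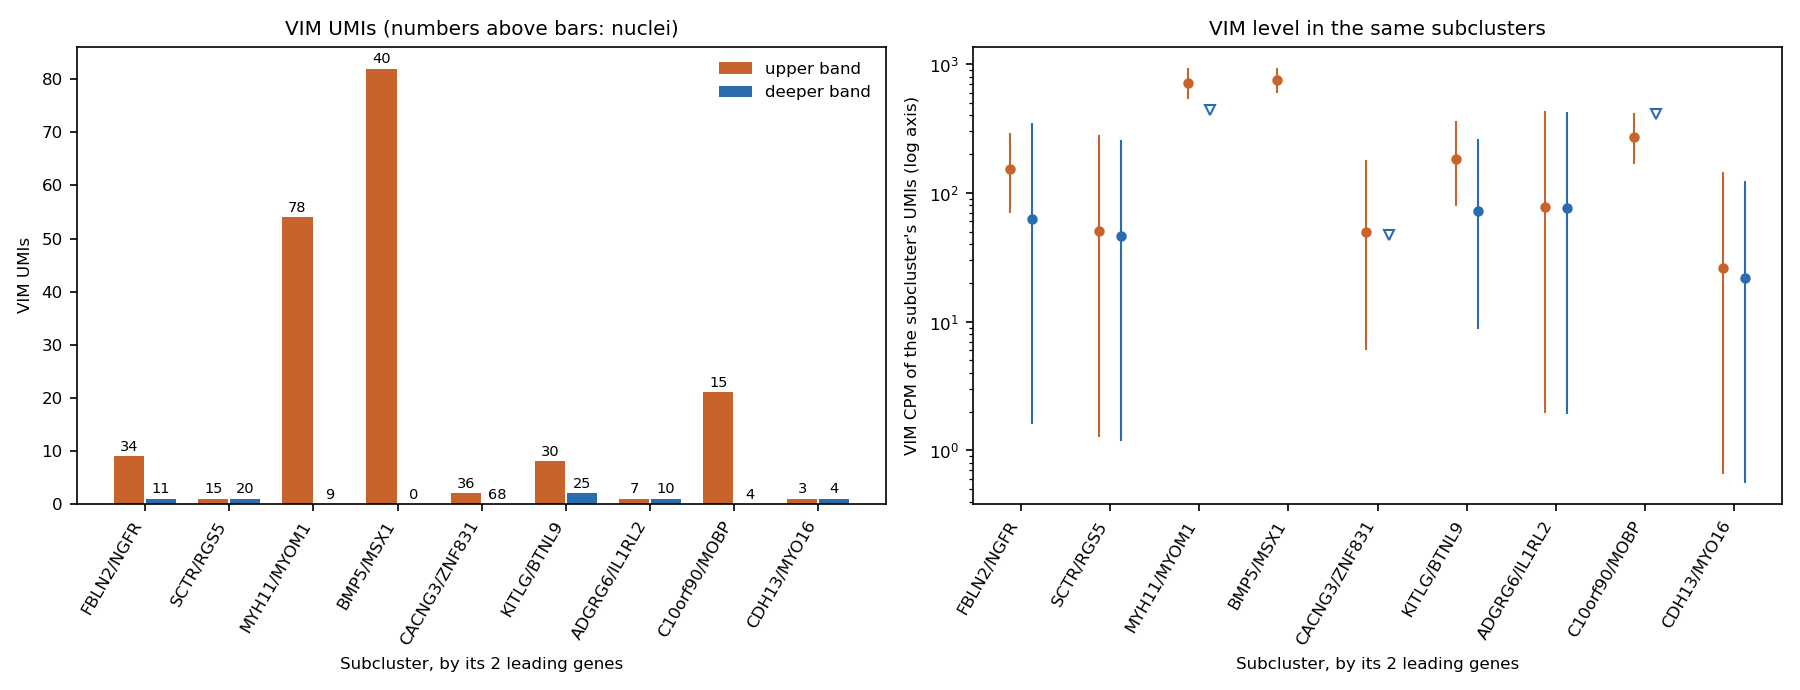
VIM in the 9 subclusters of the endothelial-like cluster. Left, VIM UMIs per library (bars from 0) with the number of nuclei above each bar. Right, VIM CPM on a log axis with exact 95% Poisson intervals, where open triangles mark the upper limit of a subcluster with 0 UMIs. The tallest bars are the 82 and 54 upper-band UMIs of the BMP5/MSX1 and MYH11/MYOM1 subclusters, which had 0 and 9 deeper-band nuclei.

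Oligodendrocyte-like nuclei held the second largest share of VIM UMIs, 16.0%, beside 7.09% of all UMIs. They had 15 UMIs in the upper band, or 6.64 CPM (3.72 to 11.0), and 37 in the deeper band, or 7.06 CPM (4.97 to 9.74). The bands were close there, with a log2 ratio of 0.09 (-0.81 to 1.06), and oligodendrocyte-like nuclei held 52.9% of all VIM UMIs of the deeper band. Excitatory neuron-like nuclei had lower levels, at 0.805 CPM (0.539 to 1.16) in the upper band and 0.395 CPM (0.221 to 0.652) in the deeper band, on 29 and 15 UMIs. Over both bands the excitatory level was 0.595 CPM (0.432 to 0.799), below the oligodendrocyte-like level of 6.94 CPM (5.18 to 9.10) with no overlap of the intervals. Endothelial markers summed to 712 and 774 CPM in the oligodendrocyte-like nuclei of the upper and deeper band (10 and 9 of 11 detected, CDH5 at 0 in both) and fibroblast markers to 7.08 and 2.86 CPM (7 and 4 of 8 detected, COL1A1 at 0 in both). Their part in the VIM level was not tested. Cluster 17 stood at 8.05 CPM (4.50 to 13.3) on 15 UMIs, which overlapped the oligodendrocyte-like level.

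Astrocyte-like nuclei, the class nearest in descent to radial glia, had 7 VIM UMIs in 1194 nuclei. Their levels were 3.32 CPM (0.904 to 8.49) in the upper band and 1.51 CPM (0.311 to 4.41) in the deeper band. A VIM UMI was present in 0.419% (0.136 to 0.975%) of astrocyte-like nuclei at a median of 2536 UMIs, against 0.650% (0.469 to 0.878%) of excitatory nuclei at 10632 and 1.45% (1.08 to 1.91%) of oligodendrocyte-like nuclei at 2014. The astrocyte-like share overlapped the excitatory one, at a lower depth, and lay below the oligodendrocyte-like one. As a level over both bands, astrocyte-like nuclei stood at 2.19 CPM (0.881 to 4.51) on these 7 UMIs. That was above the excitatory level of 0.595 CPM (0.432 to 0.799) with no overlap of the intervals.

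NES encodes nestin, the intermediate filament protein that pairs with vimentin in neural stem cells and is also made by growing vessels. It had 16 UMIs in the upper band, or 0.306 CPM (0.175 to 0.496), and 12 in the deeper band, or 0.225 CPM (0.116 to 0.393). These levels overlapped, with a log2 ratio of -0.44 (-1.65 to 0.73). Endothelial-like nuclei held 11 of the 28 UMIs, at 14.7 CPM (5.90 to 30.3) in the upper band and 18.2 CPM (4.97 to 46.7) in the deeper band. The NES intervals of the bands overlapped there and those of VIM did not, but the difference between the genes was not tested.

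Among other nuclei, oligodendrocyte precursor-like nuclei had 4 NES UMIs, or 4.74 CPM (1.29 to 12.1), and cluster 17 had 4, or 2.15 CPM (0.585 to 5.49). Astrocyte-like nuclei had 1 NES UMI, or 0.313 CPM (0.00792 to 1.74), and excitatory neuron-like nuclei had 2, or 0.0270 CPM (0.00327 to 0.0977). NES and VIM met in 3 nuclei, all in the upper band.

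PAX6 encodes a paired-box transcription factor that keeps radial glia in the progenitor state and is later used by astrocytes and by some interneurons. Astrocyte-like nuclei held 182 of its 300 UMIs, or 60.7%, but 45.3% with no doublet removal and 37.3% with classes by each nucleus's own markers. In the upper band PAX6 had 133 UMIs, or 2.54 CPM (2.13 to 3.01), and in the deeper band 167, or 3.13 CPM (2.67 to 3.64). The deeper band was higher by a log2 ratio of 0.30 (-0.04 to 0.64), whose interval spans 0.

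Astrocyte-like nuclei had 59 PAX6 UMIs in the upper band, or 48.9 CPM (37.3 to 63.1), and 123 in the deeper band, or 61.8 CPM (51.4 to 73.8). These intervals overlapped, and the log2 ratio was 0.34 (-0.12 to 0.81). With classes by each nucleus's own markers it was 0.62 (0.05 to 1.19), an interval above 0. A PAX6 UMI was present in 13.9% (10.6 to 17.8%) of the astrocyte-like nuclei above and 13.6% (11.4 to 16.2%) of those below, where median depths were 2804 and 2420 UMIs. Among oligodendrocyte-like nuclei, taken as lacking PAX6, the share over both bands was 0.0580% (0.00702 to 0.209%) at a median of 2014 UMIs, and in excitatory nuclei 0.217% (0.119 to 0.363%) at 10632. The astrocyte-like share thus lay far above that background at a similar depth. After each nucleus was thinned to 1500 UMIs, the shares over both bands were 8.33% in astrocyte-like, 0.0343% in oligodendrocyte-like and 0.0155% in excitatory nuclei.

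PAX6 was spread over the astrocyte-like nuclei. The larger astrocyte-like cluster, led by SLCO1C1 and RFX4, had 166 UMIs, or 54.6 CPM (46.6 to 63.6). The smaller one, led by ANGPT1 and GFAP with CD44 among its leading genes, had 16 UMIs, or 104 CPM (59.2 to 168), and its intervals overlapped those of the larger. That smaller cluster held 4 upper-band and 77 deeper-band nuclei.

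Cluster 10, unnamed, was next by PAX6 level over both bands, at 33.0 CPM (23.4 to 45.0). It had 34 in the upper band, or 35.6 CPM (24.7 to 49.8), and 5 in the deeper band, or 21.8 CPM (7.08 to 50.9). With 150 and 47 nuclei, it gave 25.6% of the upper-band PAX6 UMIs and 2.99% of those of the deeper band. Astrocyte-like nuclei gave 44.4% and 73.7%. RFX4, NWD1, SLCO1C1, ETNPPL and SLC1A3 were among the leading genes of both cluster 10 and the larger astrocyte-like cluster. The astrocyte-like shares thus depend on where the nuclei of cluster 10, which also raised oligodendrocyte markers, are placed. Without the unnamed clusters, a setting chosen after the values were seen, the log2 ratio of PAX6 over the remaining nuclei was 0.73 (0.35 to 1.12), an interval above 0. With more doublets removed, 2 times as many, it was 0.70 (0.32 to 1.08).

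Inhibitory neuron-like nuclei were the second named class for PAX6, with 51 UMIs, and nearly all lay in 1 cluster. The cluster led by COCH and RELN had 48 of the 51, at 19.6 CPM (14.5 to 26.1). Clustered again, inhibitory nuclei gave a subcluster led by ITGBL1 and MCTP2 with 36 PAX6 UMIs, at 71.2 CPM in 38 upper-band nuclei and 84.5 CPM in 37 deeper-band nuclei. PAX6 was itself among the leading genes of this subcluster, although it took no part in the clustering. It was present in 14 of the 38 nuclei (36.8%) and 17 of the 37 (45.9%).

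The ITGBL1/MCTP2 subcluster was named CGE-like, after the caudal ganglionic eminence, the embryonic source of one family of interneurons, because 4 markers of that family and 0 of the medial family were raised. Another CGE-like subcluster, led by COL5A3 and NWD2, had 7 PAX6 UMIs in 102 nuclei, or 11.1 CPM. Astrocyte markers summed to 733 CPM in the 75 nuclei of the ITGBL1/MCTP2 subcluster. There 5 of 11 were detected, and GFAP, GJA1, ALDH1L1, BMPR1B, FGFR3 and SLC14A1 were at 0. The same list summed to 484 CPM in the 1717 other inhibitory nuclei, where 11 of 11 were detected. With groups of such unlike size, the numbers of detected markers cannot be compared. Over all inhibitory nuclei, PAX6 stood at 2.80 CPM (1.79 to 4.16) in the upper band and 4.40 CPM (2.90 to 6.40) in the deeper band. Those intervals overlapped, with a log2 ratio of 0.65 (-0.19 to 1.51).

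FABP7 encodes brain lipid-binding protein, a fatty acid carrier of radial glia that astrocytes and oligodendrocyte precursors go on making. It had 146 UMIs in the upper band, or 2.79 CPM (2.35 to 3.28), and 105 in the deeper band, or 1.97 CPM (1.61 to 2.38). The upper band was higher, with a log2 ratio of -0.50 (-0.88 to -0.13). With 2 times as many doublets removed the ratio was -0.30 (-0.71 to 0.11), and after thinning -0.19 (-0.85 to 0.49), so both intervals spanned 0. Its level was highest in astrocyte-like nuclei, at 28.2 CPM (19.5 to 39.4) in the upper band and 21.6 CPM (15.6 to 29.1) in the deeper band, on 34 and 43 UMIs. These overlapped, with a log2 ratio of -0.38 (-1.07 to 0.31).

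Oligodendrocyte precursor-like nuclei came next, at 10.9 CPM (2.96 to 27.8) and 16.8 CPM (7.27 to 33.2), on 4 and 8 UMIs. Over both bands their level of 14.2 CPM (7.35 to 24.8) overlapped the astrocyte-like level of 24.1 CPM (19.0 to 30.1). Oligodendrocyte-like nuclei stood lowest of the named classes, at 0.400 CPM (0.0825 to 1.17). A FABP7 UMI was present in 5.61% (4.37 to 7.07%) of astrocyte-like nuclei at a median of 2536 UMIs and in 0.0870% (0.0179 to 0.254%) of oligodendrocyte-like nuclei at 2014.

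By number of UMIs, excitatory neuron-like nuclei held the largest share of FABP7, 95 of 251, or 37.8%, which is below their 70.0% of all UMIs. They had 65 in the upper band, or 1.81 CPM (1.39 to 2.30), and 30 in the deeper band, or 0.790 CPM (0.533 to 1.13). The upper band was higher, with a log2 ratio of -1.19 (-1.87 to -0.55). VIM and FABP7 were the 2 of the 3 genes with enough UMIs that were at least 2-fold lower in excitatory nuclei of the deeper band, and 0 were at least 2-fold higher. Among 17519 genes, 3.11% were at least 2-fold lower and 1.31% at least 2-fold higher there. The log2 ratio of VIM in these nuclei was -1.03 (-2.03 to -0.08), and it was no longer past 2-fold as a mean over nuclei (-0.70) or when 2 times as many doublets were removed (-0.52, -1.59 to 0.52). FABP7 stayed past 2-fold in each setting, but after thinning its interval spanned 0 (-1.35, -3.50 to 0.49).

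FABP7 was uneven among the 11 excitatory clusters. The cluster led by IQGAP2 and LGR5 had 29 UMIs, or 3.67 CPM (2.46 to 5.28). That led by NTNG1 and MME had 14, or 3.07 CPM (1.68 to 5.15). That led by FOXP2 and SYT6, genes of deep-layer neurons, had 19, or 2.80 CPM (1.69 to 4.38). The cluster led by CHST9 and IQCA1L had 8, or 2.47 CPM (1.07 to 4.87). These 4 overlapped each other. Unnamed cluster 13, which raised excitatory markers, is not among the 11 and is left out of all excitatory values. It stood at 5.01 CPM (2.16 to 9.88), on 8 upper-band and 0 deeper-band UMIs, and overlapped these 4. The larger clusters led by SYT10 and PLCXD2, FSHR and TEAD4, and HGF and CPED1 lay lower, at 0.564 CPM (0.227 to 1.16), 0.428 CPM (0.139 to 0.999) and 0.702 CPM (0.321 to 1.33), below the first 3 with no overlap.

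Different excitatory clusters were common in each band. The 4 clusters highest in FABP7, ranked by this same value, took 47.1% of upper-band excitatory nuclei but 15.1% of deeper-band ones. The SYT10/PLCXD2 and FSHR/TEAD4 clusters made up 27.7% and 25.1% of the deeper-band nuclei, against 5.71% and 8.87% of the upper-band ones. Within the 4 highest clusters FABP7 had 3.20 CPM in upper-band and 2.86 CPM in deeper-band nuclei, and its log2 ratio was -0.16 (-1.07 to 0.67). Within the other 7 the levels were 0.575 and 0.433 CPM and the log2 ratio -0.41 (-1.66 to 0.87). Both intervals span 0. Within the SYT10/PLCXD2 cluster the log2 ratio was -1.86 (-4.42 to 0.91), on 3 and 4 UMIs. In the FSHR/TEAD4 cluster it was -2.12 (-5.70 to 1.00), on 3 and 2 UMIs, and in the HGF/CPED1 cluster 0.55 (-1.68 to 3.17). The part of cluster make-up in the band difference was not tested.

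The 11 astrocyte markers summed to 403 CPM in upper-band and 402 CPM in deeper-band excitatory nuclei, with 10 of 11 and 9 of 11 detected. They summed to 400.2 CPM in the 4 clusters highest in FABP7 and 404 CPM in the other 7, with 10 of 11 detected and ALDH1L1 at 0 in each. The 6 oligodendrocyte precursor markers moved with FABP7, at 252 CPM in the 4 clusters and 80.3 CPM in the others, and at 158 CPM in the upper and 108 CPM in the deeper band, with 6 of 6 detected in each. Their part in the FABP7 level was not tested. Excitatory nuclei held 28.4% of FABP7 UMIs with no doublet removal and 16.2% after thinning. A FABP7 UMI was present in 1.91% of upper-band and 0.875% of deeper-band excitatory nuclei at medians of 10878 and 10408 UMIs. After thinning, the shares were 0.299% and 0.117%, beside 0.103% over both bands in oligodendrocyte-like nuclei.

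In inhibitory neuron-like nuclei FABP7 had 14 UMIs in either band, at 1.63 CPM (0.892 to 2.74) in the upper and 2.28 CPM (1.25 to 3.83) in the deeper, a log2 ratio of 0.48 (-0.69 to 1.66). As with PAX6, the COCH/RELN cluster held the most, 15 UMIs, or 6.14 CPM (3.44 to 10.1). FABP7 had 9 UMIs in the COL5A3/NWD2 subcluster, or 14.2 CPM (6.50 to 27.0), and 2 in the ITGBL1/MCTP2 subcluster that held most of the PAX6, or 4.31 CPM (0.522 to 15.6). Inhibitory nuclei had 0 of their 3 genes with enough UMIs (FABP7, PAX6, ASPM) at least 2-fold lower or higher in the deeper band, where 1.93% and 1.17% of 14077 genes were. Astrocyte-like nuclei likewise had 0 of 3 past 2-fold (the same 3 genes), against 1.59% lower and 2.74% higher among 10128 genes.

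**Figure D3:**
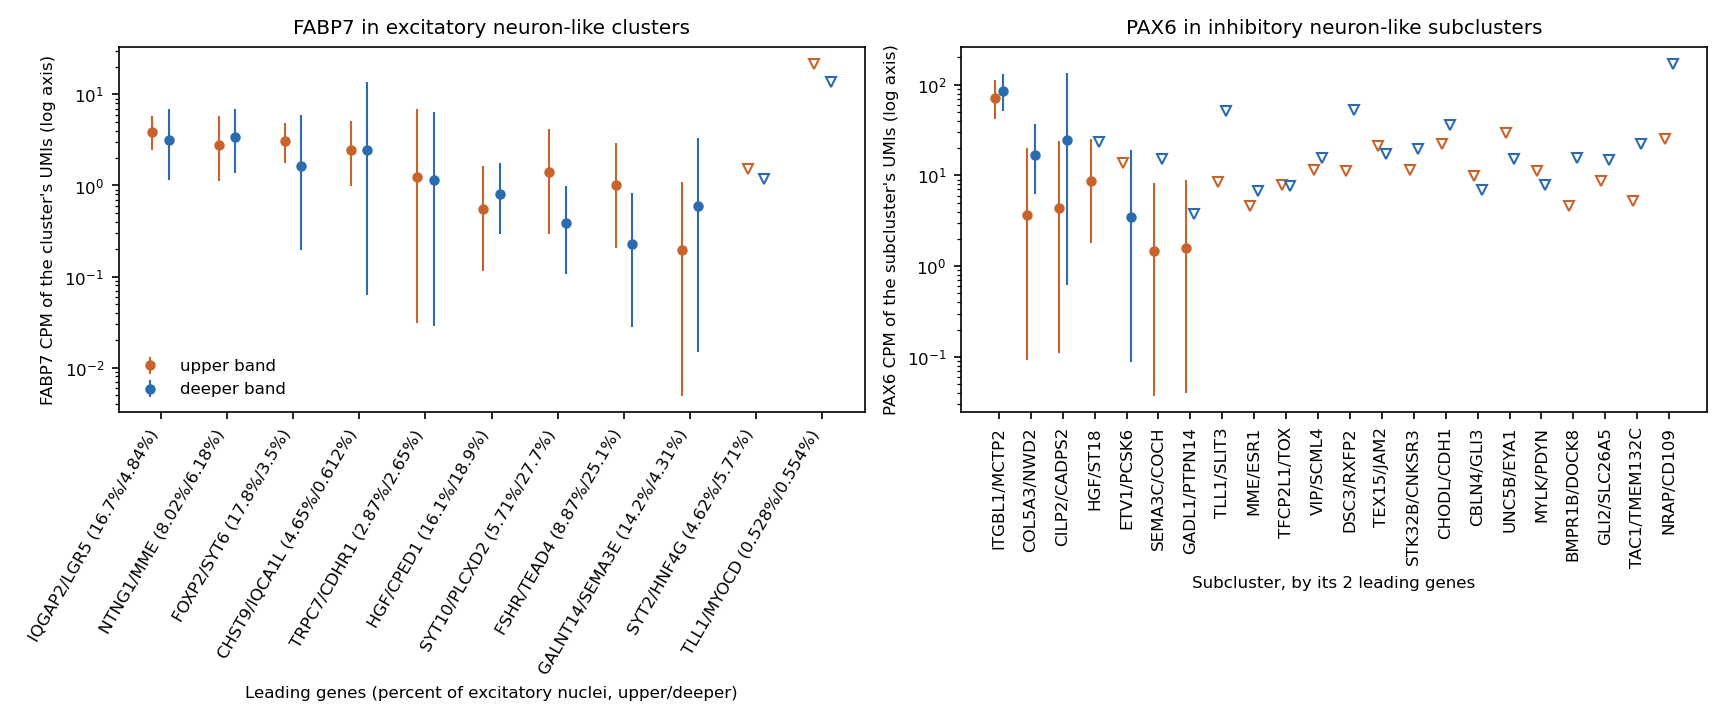
Left, FABP7 CPM in the 11 excitatory neuron-like clusters, ordered by level, with each cluster's share of the excitatory nuclei of the upper and deeper band in brackets. Right, PAX6 CPM in the inhibitory neuron-like subclusters. Axes are logarithmic, bars are exact 95% Poisson intervals and open triangles mark the upper limit of groups with 0 UMIs. PAX6 peaked in the ITGBL1/MCTP2 subcluster, at 71.2 and 84.5 CPM.

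HES1 encodes a transcriptional repressor that Notch signalling switches on to hold radial glia undifferentiated. It was nearly absent from both libraries at this depth. The upper band had 4 UMIs in 4 nuclei, or 0.0764 CPM (0.0208 to 0.196), and the deeper band 3 in 3 nuclei, or 0.0562 CPM (0.0116 to 0.164). In the upper band 1 of the 4 nuclei was astrocyte-like, 2 were inhibitory and 1 was excitatory, and in the deeper band all 3 were excitatory. With so few UMIs no class can be called its source, and 0 UMIs in 806 deeper-band astrocyte-like nuclei still allow up to 1.85 CPM, the exact upper limit.

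ASPM encodes a spindle-pole protein that keeps the divisions of radial glia symmetric and whose loss causes small brains. It had 232 UMIs in the upper band, or 4.43 CPM (3.88 to 5.04), and 208 in the deeper band, or 3.90 CPM (3.39 to 4.47). The bands overlapped, with a log2 ratio of -0.19 (-0.46 to 0.09), and its sign turned to 0.11 as a mean over nuclei and to 0.14 after thinning. Its levels over both bands ran from 3.66 CPM (3.24 to 4.13) in excitatory neuron-like nuclei through 4.15 CPM (3.17 to 5.33) in inhibitory and 6.40 CPM (4.72 to 8.49) in oligodendrocyte-like to 8.14 CPM (5.32 to 11.9) in astrocyte-like nuclei. Neighbours in that order overlapped, and the excitatory interval lay below those of the astrocyte-like and oligodendrocyte-like nuclei.

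Among the 20 clusters with at least 1000000 UMIs, ASPM had a UMI in all 20, from 1.25 to 8.88 CPM. PAX6 ran from 0 to 54.6 CPM over the same clusters and was present in 17. Inhibitory neuron-like nuclei had 44 ASPM UMIs in the upper band, or 5.13 CPM (3.73 to 6.89), and 17 in the deeper band, or 2.77 CPM (1.61 to 4.44), a log2 ratio of -0.89 (-1.79 to -0.05). The interval spanned 0 with no doublet removal (-0.66, -1.42 to 0.06) and with 2 times as many removed (-0.86, -1.82 to 0.03). In excitatory nuclei the ratio was -0.21 (-0.57 to 0.14) and in astrocyte-like nuclei 0.45 (-0.83 to 1.86). Differences between these classes were not tested. In oligodendrocyte-like nuclei, where 1.75% of 11573 genes were at least 2-fold lower and 2.13% at least 2-fold higher, 0 of the 2 genes with enough UMIs, VIM and ASPM, passed 2-fold.

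Of 13 other proliferation genes, 9 had a symbol in the matrices and 7 at least 20 UMIs. CENPE, a motor protein gene of the spindle, had 2962 UMIs. TOP2A, the DNA topoisomerase of dividing cells, had 16 UMIs and the mitotic kinase gene CDK1 had 9. At the thinned depth, ASPM was present in 0.559% (0.392 to 0.773%) of excitatory nuclei, 0.961% (0.639 to 1.39%) of oligodendrocyte-like and 0.975% (0.488 to 1.74%) of astrocyte-like nuclei, with overlapping intervals.

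**Figure D4:**
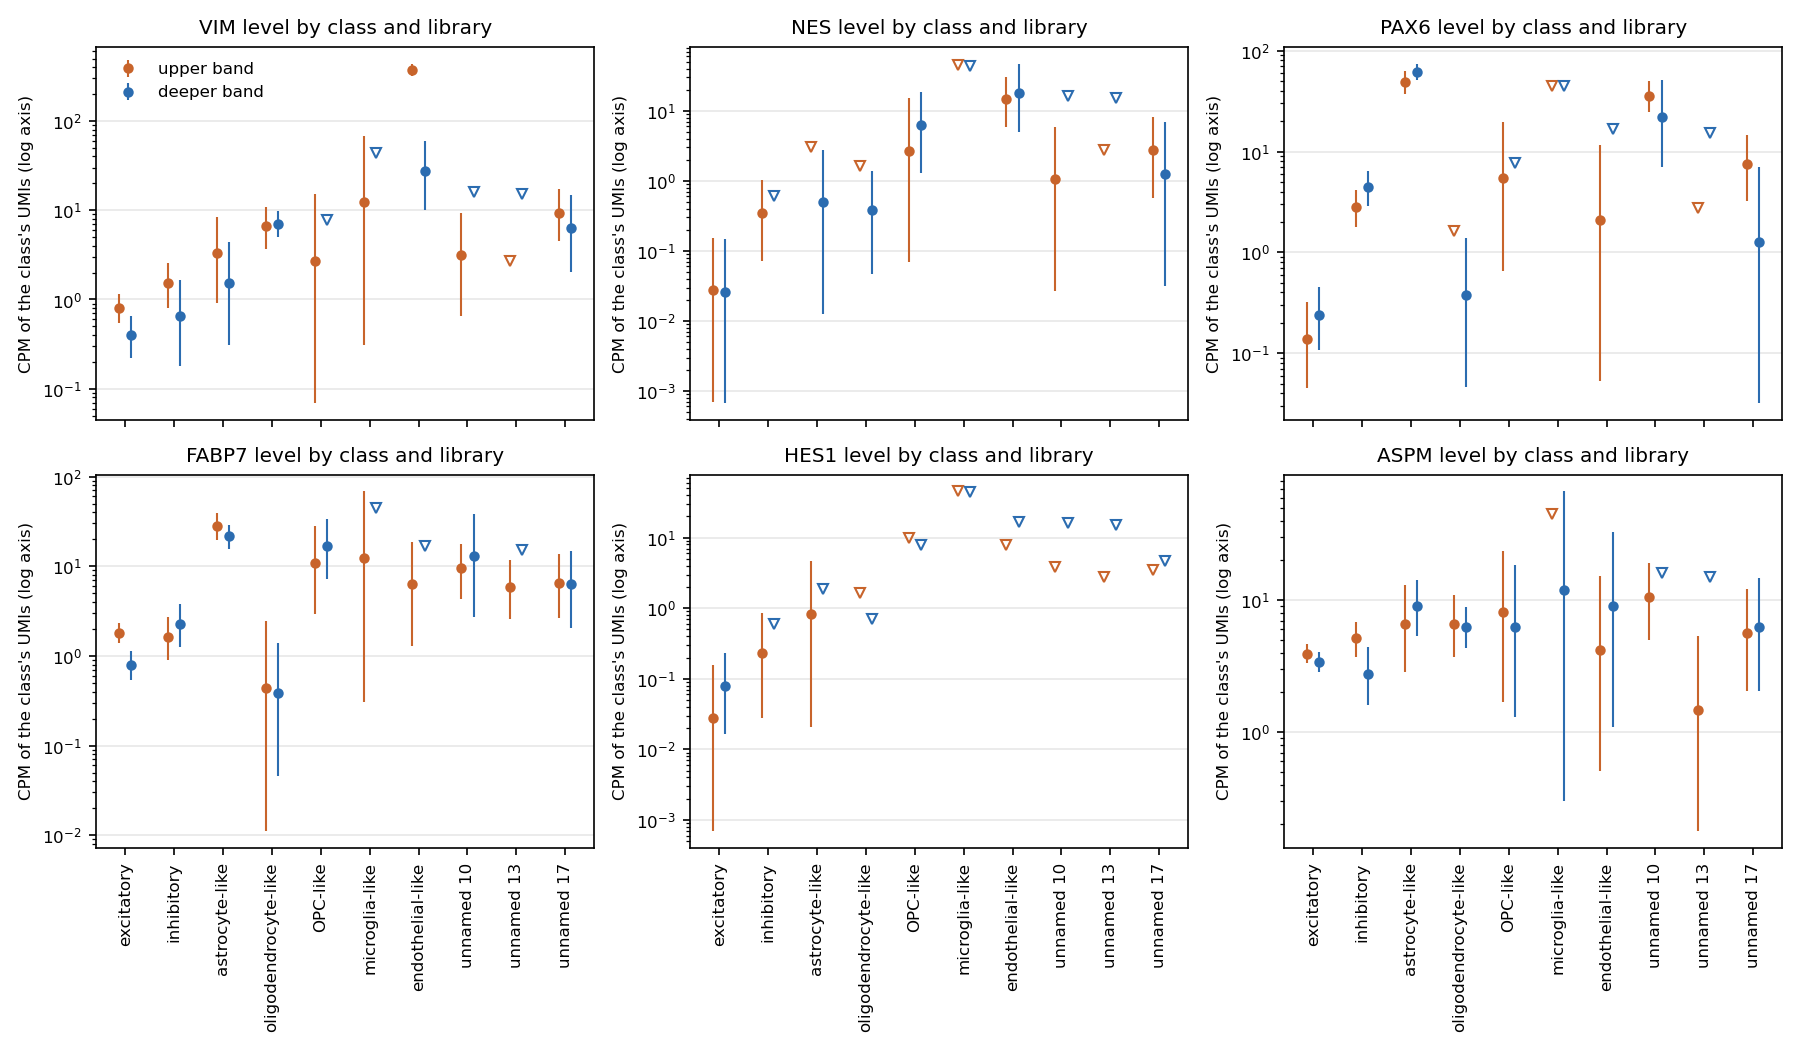
CPM of each gene by class and library on log axes, with exact 95% Poisson intervals. Open triangles mark the upper limit where a class had 0 UMIs, and unnamed clusters are given by number. PAX6 and FABP7 peak in astrocyte-like nuclei, VIM in the endothelial-like nuclei of the upper band, and ASPM lies within a narrow range in the classes with many UMIs.

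Nuclei with UMIs of several of these genes were rare. At least 2 of the 6 were present in 28 upper-band nuclei, or 0.447% (0.297 to 0.646%), and in 14 deeper-band nuclei, or 0.172% (0.0939 to 0.288%). These counts depended on the doublets and the depth. They were 41 and 33 with no doublet removal, 17 and 14 with 2 times as many doublets removed, and 7 and 2 after thinning. At least 3 were present in 2 nuclei, both in the upper band, 1 astrocyte-like and 1 in cluster 10, and 4 or more in 0. The most frequent pair was FABP7 with PAX6, in 7 upper-band and 6 deeper-band nuclei, 10 of them astrocyte-like. Next came FABP7 with ASPM and PAX6 with ASPM, in 9 nuclei each. In astrocyte-like nuclei, at least 2 genes were present in 2.58% of the upper-band nuclei (1.24 to 4.69%) against 0.744% in the deeper band (0.274 to 1.61%), at median depths of 2804 and 2420 UMIs, and those intervals overlapped. Cluster 10 had 8 such nuclei among 150 in the upper band, or 5.33% (2.33 to 10.2%), at a median of 5398 UMIs. In the deeper band it had 0 among 47.

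**Figure D5:**
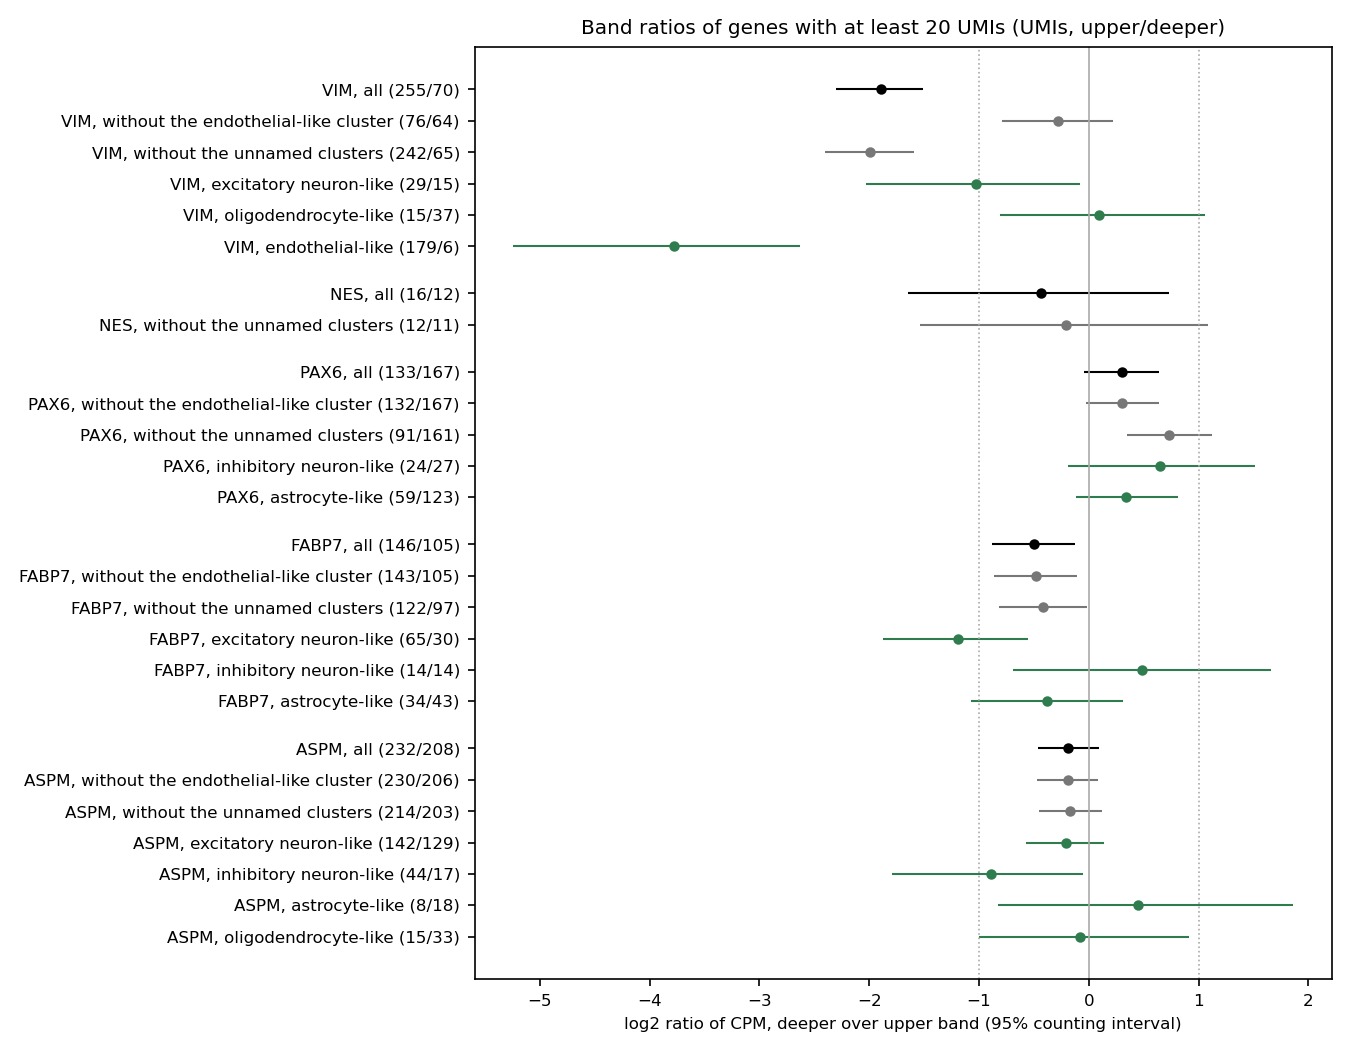
Log2 of the deeper-band CPM over the upper-band CPM, with exact 95% counting intervals, for sets of nuclei in which the gene had at least 20 UMIs (UMIs of the upper and deeper band in brackets). Black is all nuclei, grey leaves out the endothelial-like cluster or the unnamed clusters, green is 1 class, and dotted lines mark 2-fold. VIM in endothelial-like nuclei lies farthest from 0, at -3.78. Over all nuclei VIM moves from -1.89 to -0.28 when that cluster is left out.

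Other genes of the same pathways gave a measure of the setting. Of 13 other radial glia genes 10 had a symbol and at least 20 UMIs, 7 of them highest in astrocyte-like nuclei, and their median log2 ratio was 0.25. PTPRZ1, a receptor phosphatase, had a log2 ratio of 0.26, GLI3, a hedgehog pathway transcription factor, 0.25, and LIFR, a cytokine receptor, 0.13. SOX9, a glial transcription factor, was the 1 gene past 2-fold, higher in the deeper band on 6 and 31 UMIs with a log2 ratio of 2.34 (1.06 to 3.89). Astrocyte-like nuclei were 388 of 6261 above and 806 of 8150 below.

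Of 23 Notch pathway genes, 15 had enough UMIs, 0 passed 2-fold in either direction and the median log2 ratio was 0.15. MAML2, a coactivator, had 0.07, RBPJ, the DNA-binding partner of the Notch fragment, 0.18, and NUMB, an inhibitor, -0.07. Beside the 7 UMIs of HES1, RBPJ had 20581. Of 9 other intermediate filament genes 6 had enough UMIs, none passed 2-fold and the median was 0.10. INA stood at 0.23, LMNB1 at -0.10 and NEFL at 0.02.

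Of 9 fatty acid binding and response genes 5 had enough UMIs and none passed 2-fold, with a median of -0.07, where the nuclear receptor gene PPARG stood at 0.41, PPARA at -0.02 and FABP3 at -0.09. Of 15 genes of microcephaly and the spindle, 13 had enough UMIs and none passed 2-fold, with a median of -0.03. CIT, a kinase gene of cell division, stood at 0.04 and MCPH1 at 0.00. None of the 7 proliferation genes with enough UMIs passed 2-fold (median -0.22), and CENPE stood at -0.30, PLK1 at -0.22 and TPX2 at 0.33 (-0.09 to 0.76). Of 7 intermediate progenitor genes only PPP1R17 had enough UMIs, 59 and 29, and it was lower in the deeper band by a log2 ratio of -1.05 (-1.75 to -0.39). EOMES, the defining transcription factor of these progenitors, had 3 UMIs, INSM1 had 4 and NEUROG2 had 1.

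The genes most alike to each of the 4 with at least 50 UMIs were sought among 10802 candidates, over 14 points (7 named classes in 2 libraries) that share libraries and depth, by Pearson's r of log2(CPM + 1). The values are a description. VIM was most like PRDM6 (0.93), MYL9 (0.92), a myosin light chain of smooth muscle, and C19orf53 (0.91). FABP7 was most like MOV10L1 (0.96), KCTD15 (0.95) and VEGFA (0.90), and PAX6 most like AHCYL2, NWD1 and IZUMO1R (0.94 each). ASPM was most like EMC4 (0.96), MIDEAS (0.95) and SRPRB (0.94). Among themselves, FABP7 and PAX6 had 0.65, while VIM had 0.01 with FABP7 and -0.05 with PAX6.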

How the data were processed

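Nuclear RNA of 2 libraries, 1 per band, was profiled on the 10x platform. The authors deposited UMI counts per gene and barcode, whole numbers that were not normalized, per the file headers and values. Cell Ranger is named with versions 6.2.1 and 2.1.1 per the submitters' processing notes, and the file headers give software version 3.1.0. The aligner, genome build, annotation and use of intronic reads are not given in the sources used here. The matrices list 28156 features, 14296 with a symbol.

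Barcodes with at least 500 genes were kept, and barcodes past the automatic threshold of Scrublet, run per library with an expected rate of 0.8% per 1000 nuclei, were removed as doublets, 830 (11.7%) in the upper and 1458 (15.2%) in the deeper band. Nuclei of both libraries were clustered in scanpy 1.11.5 (2000 variable genes, 30 components, 15 neighbours, Leiden resolution 1 with igraph 0.11.9), with the 6 genes kept out of the variable genes and the marker lists. A cluster took a name from at least 3 raised markers unless more of its 10 leading genes were on another class's list than on its own. Cluster 13 raised 6 excitatory neuron markers. It stayed unnamed because its leading genes included ERG, from the endothelial list, and 0 from the excitatory list. Subclusters of low depth without their own markers on top stayed unnamed. Names were rebuilt here, since no annotation was used. Counts were summed per library and class. Ratios carry exact conditional binomial intervals (SciPy 1.17.1). They were checked on simulated Poisson counts only, which hold no clumping of UMIs within nuclei, so the check cannot cover such clumping. Genes with at least 20 UMIs over both libraries were compared at 2-fold. No test was made, because each band is 1 library. For shares at equal depth, each nucleus was thinned to 1500 UMIs and shallower nuclei were left out, 24 of the excitatory, 66 of the astrocyte-like and 535 of the oligodendrocyte-like nuclei. Of the 409 endothelial-like nuclei, 293 were left out.

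All 6 genes are named throughout. Of each related list, the 3 genes with the most UMIs and those at the extremes past 2-fold are named, and for likeness the 3 highest correlations. One gene that this rule names is not reported here. Other related genes, subclusters and excitatory clusters were named after their values were seen. The 6 genes, the lists and the comparisons were chosen with earlier results of these data known. Alternatives covered the gene minimum, doublet removal, resolution, thinning, the weighting of nuclei, marker-based classes and the UMI minimum. Leaving out a class was added after seeing the data.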

Additional observations from a re-analysis of the deposited data

Results flagged for a closer look

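Barcodes that were left out of the values above, except those given with no doublet removal, 890 upper-band and 1544 deeper-band ones, also held UMIs of these genes beyond the 3 counts that a count of 0 allows. VIM had 33 there in the upper band (2.37 CPM, against 4.87 CPM in kept nuclei) and 29 in the deeper band (1.16 against 1.31 CPM). FABP7 had 43 in the upper band (3.09 CPM) and 51 in the deeper band (2.04 CPM). PAX6 had 38 in the upper band (2.73 CPM) and 64 in the deeper band (2.56 CPM). ASPM had 73 in the upper band (5.25 CPM) and 93 in the deeper band (3.72 CPM), and NES had 8 in the upper band (0.576 CPM, against 0.306 CPM in kept nuclei). All of these UMIs came from barcodes called doublets, except 6 VIM UMIs of the upper band in barcodes under the gene minimum. The left-out barcodes had medians of 14100 and 12706 UMIs.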

How the results depend on the processing

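Of the values recomputed for the comparisons, 179 stayed within their spread and 28 moved. VIM over all nuclei moved to a log2 ratio of -0.28 without the endothelial-like cluster, and in endothelial-like nuclei to -2.45 after thinning and -1.60 with classes by each nucleus's own markers. Thinning kept only 86 upper-band and 30 deeper-band endothelial-like nuclei. PAX6 over all nuclei moved to 0.70 with 2 times as many doublets removed and 0.73 without the unnamed clusters, and in inhibitory nuclei to 1.57 after thinning. NES moved to 0.99 after thinning. ASPM moved to 0.11 as a mean over nuclei and 0.14 after thinning, and in excitatory nuclei to 0.21 after thinning. The endothelial-like share of VIM UMIs was 51.1% at a gene minimum of 1000 and 8.31% with own markers. Own markers put mural and fibroblast nuclei in separate classes, so 8.31% and -1.60 cover a narrower class than the cluster. The excitatory share of FABP7 was 28.4% with no doublet removal, 16.2% after thinning and 10.8% with own markers. The astrocyte-like share of PAX6 was 45.3% with no doublet removal, 71.9% with 2 times as many removed, 75.6% after thinning and 37.3% with own markers. The excitatory share of ASPM was 48.5% with no doublet removal, 39.8% after thinning and 18.9% with own markers. Own markers left 3839 and 4499 nuclei unassigned, under thresholds set after the data were seen. Upper-band nuclei with at least 2 of the genes numbered 17 with 2 times as many doublets removed and 7 after thinning, and deeper-band ones 33 with no doublet removal and 2 after thinning. With no minimum of UMIs, 3.41% of genes were at least 2-fold higher and 6.04% lower in the deeper band. Of the other levels and shares, 247 stayed within their spread and 33 moved. The cause was not tested. No paired analysis was possible because each band has 1 library, and for the same reason no library could be left out. HES1 and NES rest on 7 and 28 UMIs.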
